A study of Mus musculus with 92 samples.

Results

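Clu, Spp1, Il1rn and Gja1 are 4 genes used as markers of fetal and regenerating gut epithelium. They were chosen by symbol from the 54532 genes of the deposited mouse count tables, each symbol matched 1 gene, and they are described here one at a time across 92 RNA-seq libraries in 21 groups. The study deleted Eif4g2, which encodes a translation initiation factor related to eIF4G, in mouse intestine, small intestinal organoids and fetal intestinal spheroids. It also treated organoids with A-485, an inhibitor of the acetyltransferases EP300 and CBP. Its title concerns the translation of histone modifiers and the upkeep of intestinal stem cells.

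Crypts and villi came from tamoxifen-treated mice with floxed Eif4g2 on both alleles (flox/flox, called homozygous here) or on 1 allele (flox/+, heterozygous), so the heterozygous controls also carried CreER and a floxed allele. Rosa26-CreER mice, in which Cre is expressed in all tissues, were sampled on day 9 and gave 4 homozygous and 5 heterozygous crypt libraries and 5 villus libraries of each genotype. Vil1-CreER mice, in which Cre is restricted to the gut epithelium, were sampled at month 3 and gave 3 homozygous and 4 heterozygous crypt libraries, 6 homozygous villus libraries and 4 heterozygous ones. The first organoid set held 3 flox/flox Rosa26-CreER lines, each given DMSO or 0.5 µM 4-hydroxytamoxifen (4-OHT) for 24 h and collected on day 6. In the second organoid set all libraries received 0.5 µM 4-OHT for 24 h and were collected on day 6. The groups were CreER-only organoids with unfloxed Eif4g2, flox/+ organoids and flox/flox organoids, with 4 libraries each. In the A-485 series 4 organoid lines were given DMSO or A-485 at 3, 5 or 10 µM for 4 days, without 4-OHT. All 4 carried Rosa26-CreER, 3 were flox/flox and the line of replicate 1 had unfloxed Eif4g2. The line of replicate 2 was also that of replicate 1 in the first organoid set, so comparisons of the 4-OHT and A-485 effects share a line. Fetal spheroids came from 6 flox/flox and 5 flox/+ Rosa26-CreER lines, each given DMSO or 0.5 µM 4-OHT for 24 h and collected on day 6. Embryonic and adult ages of the animals are not given in the sources used here. The labels name the culture lines but not the donor of each, so p-values measure the spread between these animals and lines.

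Fetal gut epithelium grown in culture forms round spheroids of immature cells, whereas adult epithelium forms budding organoids with crypt-like domains. After injury, adult crypt cells can switch on part of the fetal transcript programme while they rebuild the tissue. Clusterin, the product of Clu, is a secreted chaperone that marks the revival stem cells of the damaged intestine. Osteopontin, the product of Spp1, is a secreted ligand of integrins and CD44 that is made by fetal epithelium and also in large amounts by macrophages. Il1rn encodes the interleukin-1 receptor antagonist, which occupies the IL-1 receptor without signalling, and Gja1 encodes connexin 43, a subunit of gap junction channels that is abundant in stromal and muscle cells.

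Library depth ran from 8652040 to 37611126 counted reads, and the A-485 series was the shallowest, at 8652040 to 16436145. Levels are given as CPM, the reads of a gene scaled by the total of its library. Eif4g2 followed the genotype labels: its mean fell from 738 to 148 CPM in the first organoid set, from 852 to 131 CPM in flox/flox spheroids, and from 498 to 119 CPM between heterozygous and homozygous Rosa26-CreER crypts. It was 606 against 276 CPM in Vil1-CreER crypts. The Y-linked gene Ddx3y was above 1 CPM in 5 of 5 heterozygous and 1 of 4 homozygous Rosa26-CreER crypts. In the villi of that driver it was so in 5 of 5 and 2 of 5, so sex and genotype were partly confounded for all 4 genes. The A-485 libraries had reads in 13158 to 17640 genes and a 4-OHT spheroid library of the flox/flox line 4 in 13402, against 17530 to 23123 in the other 75 libraries. In that spheroid library Clu, Gja1 and Spp1 were inside the range of their group and Il1rn was the highest. Of the macrophage markers counted, C1qb and C1qc had no read in any organoid or spheroid library. Other markers of that list had reads, and their sum reached 25.7 CPM in organoids and 66.6 CPM in spheroids.

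In the GRCm38 coordinates of the tables, Clu (ENSMUSG00000022037) lies at chr14:65968483-65981547, Spp1 (ENSMUSG00000029304) at chr5:104435118-104441050, Il1rn (ENSMUSG00000026981) at chr2:24336853-24351494 and Gja1 (ENSMUSG00000050953) at chr10:56377330-56402513, all on the plus strand. Spp1 overlaps the predicted gene Gm42793 on the same strand, which had 46 reads in all against 60064 for Spp1. RefSeq promoter windows on GRCm38.p6 were matched for 3 of the 4 genes, all but Clu. The 240 bases from 250 to 11 bases before the start are shown for Gja1 and Il1rn, which rose with 4-OHT in the same cultures, and for Spp1. For 4-OHT in the first organoid set Spp1 missed the threshold in the main fit (edgeR, adjusted p = 0.0551). It passed in 4 of 6 alternative fits that kept all libraries. The windows shown lie at chr10:56377050-56377289, chr2:24336610-24336849 and chr5:104434861-104435100, and capitals mark a match to the AP-1 motif TGANTCA.
Gja1: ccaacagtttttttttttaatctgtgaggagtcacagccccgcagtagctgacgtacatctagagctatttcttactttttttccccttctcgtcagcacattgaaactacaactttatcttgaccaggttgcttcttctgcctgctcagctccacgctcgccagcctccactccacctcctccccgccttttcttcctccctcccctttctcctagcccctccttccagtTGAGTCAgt
Il1rn: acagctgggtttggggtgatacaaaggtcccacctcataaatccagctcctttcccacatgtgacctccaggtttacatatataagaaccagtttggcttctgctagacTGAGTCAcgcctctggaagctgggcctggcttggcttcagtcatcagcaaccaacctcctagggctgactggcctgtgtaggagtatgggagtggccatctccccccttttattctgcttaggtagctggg
Spp1: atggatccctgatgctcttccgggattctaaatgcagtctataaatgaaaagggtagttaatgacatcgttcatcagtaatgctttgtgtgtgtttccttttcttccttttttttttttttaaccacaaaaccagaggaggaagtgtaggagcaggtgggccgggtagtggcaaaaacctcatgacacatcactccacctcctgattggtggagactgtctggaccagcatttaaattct
The TGANTCA match lies 19 bases upstream of the Gja1 start and 141 bases upstream of the Il1rn start, and the Spp1 window has none. The TEAD motif GGAATG was in none of the 3 windows shown. RefSeq gives 2 further starts for Il1rn and 1 for Spp1, downstream of those shown. Of their windows, that at chr2:24345121-24345360 for Il1rn holds GGAATG 24 bases upstream of its start, and the others hold neither motif. Searched on both strands in all 32851 RefSeq promoter windows of this length, TGANTCA was found in 6.58% and GGAATG in 12.2%. The motifs share no overlap, and a match describes the letters only.

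**Figure D1:**
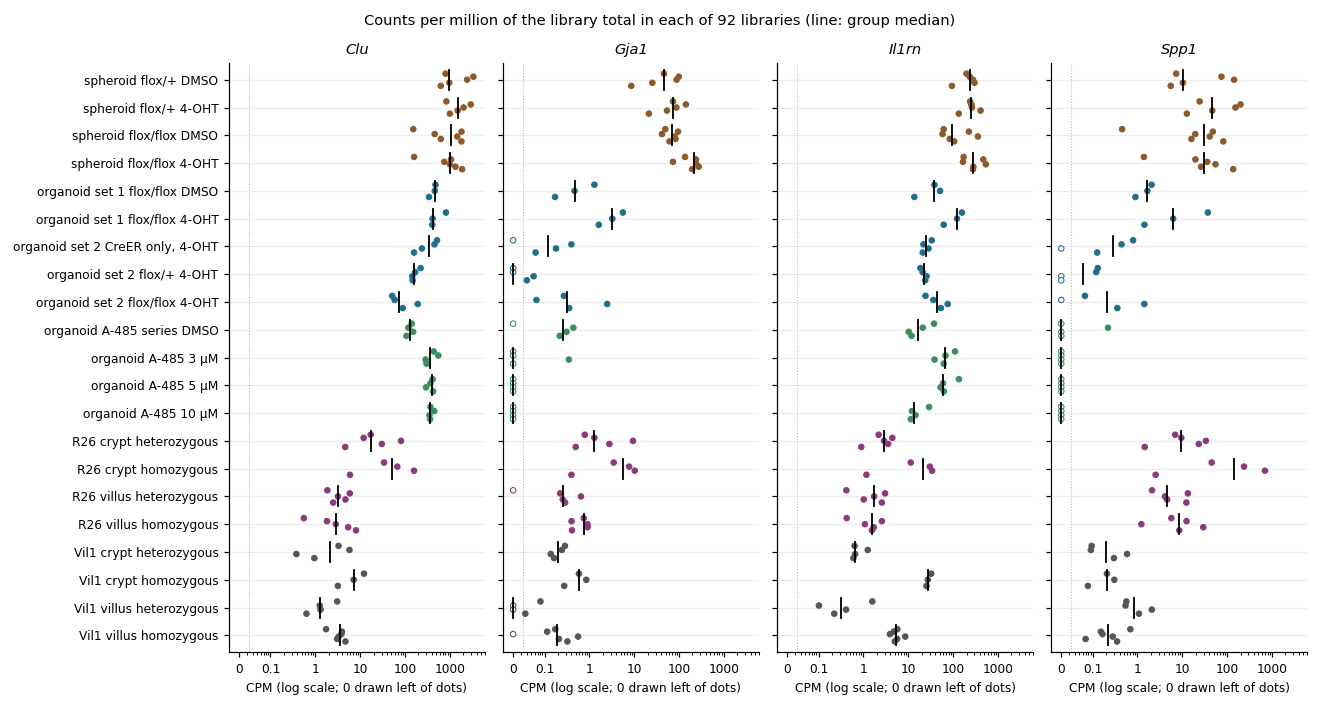
CPM of Clu, Gja1, Il1rn and Spp1 in every library of the 21 groups on a log axis, with 1 point per library, open where it is at 0, and a bar at the group median. The spheroid groups hold the highest medians of Clu and Gja1, and Spp1 and Gja1 are at or near 0 in the A-485 series.

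Clu had reads in all 92 libraries and was highest in fetal spheroids, lower in organoids and lowest in tissue. Group medians ran from 1496 CPM in flox/+ spheroids with 4-OHT down to 1.28 CPM in heterozygous Vil1-CreER villi, and in 19 of the 20 steps of that order the ranges of neighbouring groups overlapped. In 4-OHT cultures of flox/+ lines the 5 spheroid libraries had 839.5, 2936, 2031, 1496 and 1002 CPM, and the 4 organoid libraries had 224, 169.8, 146 and 148 CPM. All spheroid values were above all organoid values, a difference of 3.42 ± 0.57 on the log2 scale (edgeR's quasi-likelihood test, adjusted p = 1.91e-04; ± gives the standard error of a log2 difference throughout). In flox/flox cultures with 4-OHT the 6 spheroid lines ran from 159.7 to 1887 CPM with a median of 1036, against 52.0, 59.0, 193 and 89.2 CPM in organoids. These ranges overlapped at their ends, through spheroid line 1, and the difference was 3.45 ± 0.57 (edgeR, adjusted p = 2.44e-04).

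A-485 raised Clu, and to the same level at every dose given. DMSO organoids had 141, 119, 152 and 108 CPM. At 3 µM the values were 438, 554, 289 and 303 CPM, at 5 µM 414, 369, 295 and 425 CPM, and at 10 µM 369, 449.5, 351 and 365 CPM. Each of the 12 treated libraries lay above each of the 4 DMSO libraries, and in every line the treated value was 1.90 to 4.65 times the DMSO value. The differences from DMSO were 1.49 ± 0.19 at 3 µM (edgeR, adjusted p = 2.66e-05), 1.46 ± 0.19 at 5 µM (edgeR, adjusted p = 5.15e-06) and 1.44 ± 0.19 at 10 µM (edgeR, adjusted p = 2.77e-06). The doses share the DMSO libraries. Between doses the differences were -0.03 ± 0.18 from 3 to 5 µM (edgeR, adjusted p = 0.92) and -0.02 ± 0.18 from 5 to 10 µM (edgeR, adjusted p = 0.962).

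**Figure D2:**
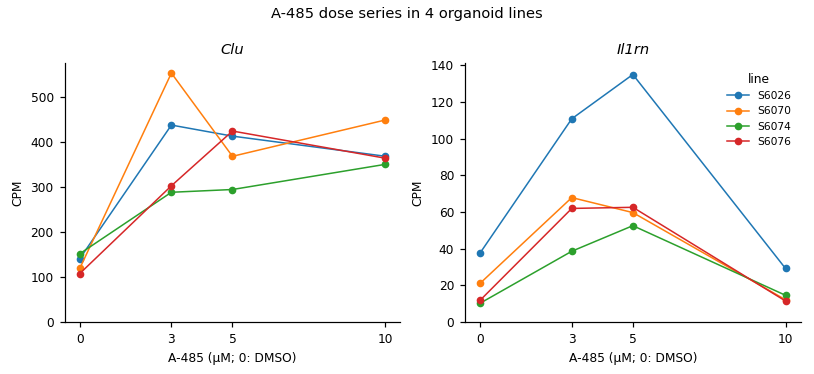
CPM of Clu and Il1rn in the 4 organoid lines against the dose of A-485 in µM, with 1 line per organoid line. Clu steps up at 3 µM and stays there, while Il1rn is raised at 3 and 5 µM and at 10 µM lies between 11.4 and 29.2 CPM, within the DMSO range.

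Clu did not pass the test for a change with 4-OHT in the first organoid set. The lines had 480.0, 464 and 344 CPM with DMSO and 821, 414 and 406 CPM with 4-OHT. The ranges overlapped, only the line of replicate 1 left the DMSO range, and the difference was 0.30 ± 0.28 (edgeR, adjusted p = 0.447). Without the 4-OHT library of that line it was -0.10 (edgeR, adjusted p = 0.68). The 4-OHT effect was smaller than the effect of 10 µM A-485 by 1.13 ± 0.33 in a test of the difference within the same count table (log2 difference -1.13, edgeR, adjusted p = 0.00983), although the cultures were collected at different days. Against the 3 µM effect it was -1.19 ± 0.33 (edgeR, adjusted p = 0.0438), a call that stood in 5 of 14 fits that left out a library, with adjusted p up to 0.125. The DMSO levels differed as well, at 344 to 480.0 CPM in the first set and 108 to 152 CPM in the A-485 series. The line of first-set replicate 1, present in both, had 480.0 and 119 CPM with DMSO. The part of these baselines was not tested.

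In the second organoid set Clu was lowest in flox/flox organoids. CreER-only organoids had 519.7, 455, 239 and 159 CPM, flox/+ organoids 224, 169.8, 146 and 148 CPM, and flox/flox organoids 52.0, 59.0, 193 and 89.2 CPM. Of the flox/flox libraries only replicate 3 reached the range of the other 2 groups. Clu was lower in flox/flox than in CreER-only organoids by 1.81 on the log2 scale (-1.81 ± 0.50, edgeR, adjusted p = 0.0146). Against flox/+ organoids the difference was -0.81 ± 0.49 (edgeR, adjusted p = 0.209), or -1.36 without flox/flox replicate 3 (edgeR, adjusted p = 0.0329). The difference between flox/+ and CreER-only was -1.001 ± 0.49 (edgeR, adjusted p = 0.521).

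Within flox/flox spheroids Clu ran from 153 to 1825 CPM with DMSO (median 1047) and from 159.7 to 1887 CPM with 4-OHT (median 1036). The spread between lines was larger than the change with treatment. Of the lines, 4 were higher and 2 lower with 4-OHT, at 0.583 to 2.12 times their DMSO value, and the difference was -0.09 ± 0.55 (edgeR, adjusted p = 0.938). Across the 11 spheroid lines with DMSO, Clu and Spp1 varied together (Pearson's r = 0.912, permutation p = 2.6e-04, adjusted over 6 relations 0.00156; Spearman's rho = 0.836, permutation p = 0.0022, adjusted 0.0132). Without the 2 lines farthest from the median of Clu, r was 0.822. Clu and Il1rn passed by both measures too (Pearson's r = 0.730, permutation p adjusted 0.0267). By rank alone Clu and Gja1 passed (Spearman's rho = 0.727, permutation p adjusted 0.0295), as did Gja1 and Spp1 (rho = 0.691, permutation p adjusted 0.0338). Il1rn passed with neither Gja1 nor Spp1. Lines with the same first number in their label may come from the same animal or litter, which the sources used here do not say, and these relations are given as descriptions.

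In tissue Clu was low and varied widely between mice of a genotype. Heterozygous Rosa26-CreER crypts had 17.2, 11.99, 81.5, 30.4 and 4.65 CPM, and homozygous crypts had 34.1, 67.6, 159 and 5.93 CPM. The groups overlapped, and the difference was 1.32 ± 0.92 (edgeR, adjusted p = 0.335). Villi held 1.86 to 5.89 CPM in the same heterozygous mice (median 3.21) and 0.555 to 8.10 CPM in 5 homozygous mice (median 2.87), 1 of which gave no crypt library. Clu was higher in crypts than in villi in heterozygous (1.98 ± 0.80, edgeR, adjusted p = 0.034) and homozygous mice (3.23 ± 0.85, edgeR, adjusted p = 0.00234). With the animal as a block the homozygous difference had an adjusted p of 0.0573 in edgeR, and without heterozygous crypt replicate 3 the heterozygous one was 1.19 (edgeR, adjusted p = 0.174). At month 3, Vil1-CreER crypts had 3.30, 5.79, 0.379 and 0.952 CPM (heterozygous) and 12.2, 7.18 and 3.18 CPM (homozygous), a difference of 1.73 ± 0.88 (edgeR, adjusted p = 0.194). Vil1-CreER villi had 3.08, 1.26, 1.31 and 0.635 CPM against a range of 1.74 to 4.70 CPM with a median of 3.58 (0.92 ± 0.40, edgeR, adjusted p = 0.0813). Heterozygous villus replicate 1 overlapped the homozygous group, and without it the difference was 1.54 (edgeR, adjusted p = 0.00537).

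Spp1 was high in spheroids and in some Rosa26-CreER crypts, and had few or no reads in most organoids. With 4-OHT, the 5 flox/+ spheroid lines had 24.4, 199.8, 154, 46.7 and 12.7 CPM, while the 4 flox/+ organoid libraries together held 4 reads (0.130, 0.121, 0 and 0 CPM). The groups did not overlap, and the ratio of pooled levels was 1558 with an exact 95% interval of 608 to 5720 that covers counting error only. In flox/flox cultures with 4-OHT the spheroids ran from 1.40 to 137 CPM (median 31.1) and the organoids had 0.0676, 0, 1.43 and 0.356 CPM, a pooled ratio of 96.4 (67.8 to 142). Of the 31 organoid reads 24 came from replicate 3, and without that library, left out after the data were seen, the ratio was 314 (152 to 781). Spheroid line 1, the lowest for Clu too, was at the level of organoid replicate 3. With so few organoid reads Spp1 entered the test through the spheroids alone, and its calls there (edgeR, adjusted p = 1.30e-04 and 0.00119) are not counted as support.

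In the first organoid set Spp1 was 2.07, 1.67 and 0.901 CPM with DMSO and 37.2, 6.28 and 1.43 CPM with 4-OHT. All 3 lines were higher with 4-OHT, 17.9, 3.76 and 1.59 times their DMSO level, but the line of replicate 3 remained within the DMSO range. The difference was 3.20 ± 1.08 (edgeR, adjusted p = 0.0551) and, with the line as a block, 2.58 (edgeR, adjusted p = 0.0199). Without 4-OHT replicate 1 it was 1.28 and without 4-OHT replicate 3 it was 3.73 (edgeR, adjusted p = 0.00692 for the latter). In the second set CreER-only organoids had 0.802, 0.442, 0 and 0.127 CPM, from 25 reads, and flox/flox organoids held 31 reads. The CreER-only median of 0.284 CPM was above the flox/flox median of 0.212 CPM, while the means were 0.343 and 0.463 CPM. The pooled flox/flox level was 9.05 times the flox/+ level (3.20 to 35.3), or 2.78 times (0.706 to 12.9) without flox/flox replicate 3. Spp1 had 3 reads in 1 of the 16 libraries of the A-485 series, a DMSO library, and none in the other 15, in which 3 reads would be 0.183 to 0.347 CPM.

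Spp1 of the flox/flox spheroids ran from 0.455 to 82.2 CPM with DMSO (median 30.3) and from 1.40 to 137 CPM with 4-OHT (median 31.1). It was higher with 4-OHT in 5 of 6 lines, at 0.408 to 3.07 times the DMSO level, and the difference was 0.34 ± 0.98 (edgeR, adjusted p = 0.861). The flox/+ spheroids had 7.33, 74.7, 143, 10.3 and 5.54 CPM with DMSO and 24.4, 199.8, 154, 46.7 and 12.7 CPM with 4-OHT, higher in 5 of 5 lines at 1.07 to 4.53 times (0.86 ± 1.08, edgeR, adjusted p = 1). Neither genotype passed the test, and the 4-OHT effects differed by -0.53 ± 1.45 (edgeR, adjusted p = 0.937).

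**Figure D3:**
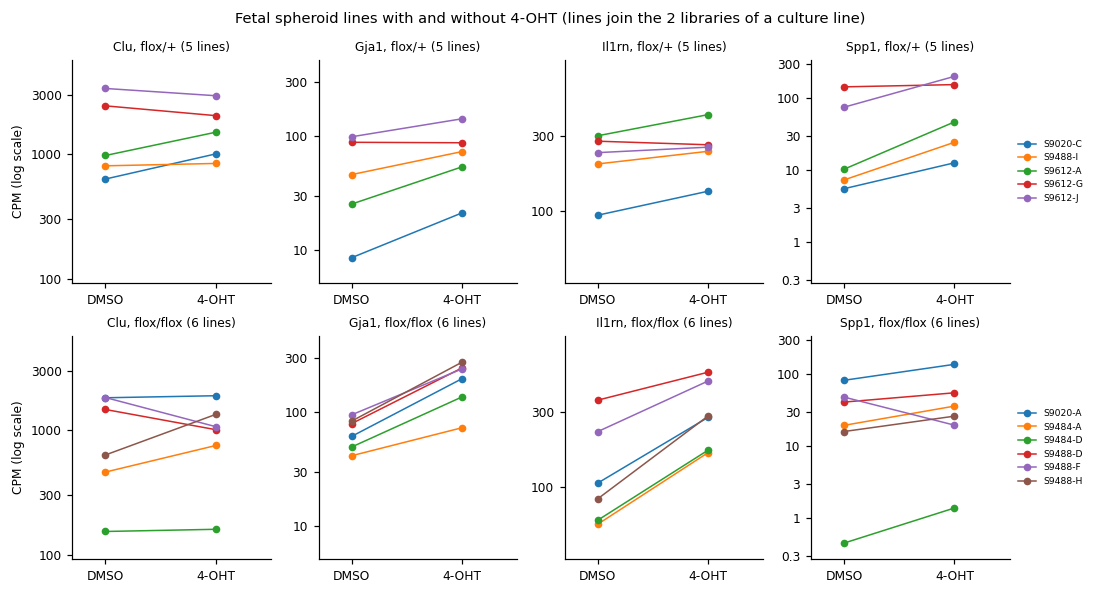
CPM of the 4 genes in each spheroid line with DMSO and with 4-OHT on a log axis, with a line joining the libraries of each spheroid line, for 6 flox/flox and 5 flox/+ lines. Gja1 and Il1rn are higher with 4-OHT in 6 of 6 flox/flox lines, while Clu and Spp1 differ more between lines than between treatments.

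In tissue Spp1 reached its highest levels in homozygous Rosa26-CreER crypts. Heterozygous crypts had 6.97, 9.53, 33.7, 23.3 and 1.46 CPM, and homozygous crypts had 45.3, 239, 699.5 and 2.55 CPM. Of the homozygous mice 3 were above all heterozygous mice and replicate 5 was near the bottom, and the difference of 4.13 ± 1.31 missed the threshold (edgeR, adjusted p = 0.0536). Without homozygous replicate 5 it was 4.54 (edgeR, adjusted p = 0.00953), and without homozygous replicate 4 it was 2.77 (edgeR, adjusted p = 0.16). In 7 alternative fits that kept all libraries the difference was 2.01 to 4.19. It passed in 2 of them, and the adjusted p in edgeR or DESeq2 reached 0.468. Ddx3y was above 1 CPM in 5 of 5 heterozygous and 1 of 4 homozygous crypts. The summed level of 10 macrophage markers, none at 0 in either group, was 119.5, 149, 352, 260.1 and 35.8 CPM in the heterozygous and 560.2, 1172, 2597 and 59.8 CPM in the homozygous crypts in the same order of replicates. Summed neutrophil markers ran from 5.92 to 14.9 CPM and from 14.3 to 281 CPM, and fibroblast markers from 68.4 to 1470 CPM and from 76.1 to 3314 CPM. Spp1, Clu and Gja1 were lowest in the mice with the fewest macrophage reads, and the part of these cells in the differences was not tested. Mitochondrial transcripts took 6.24 to 12.4% of the reads in heterozygous and 13.7 to 25.2% in homozygous Rosa26-CreER crypts, without overlap. Their part was not tested either. In bulk tissue, more cells of a type and more RNA per cell cannot be told apart.

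**Figure D4:**
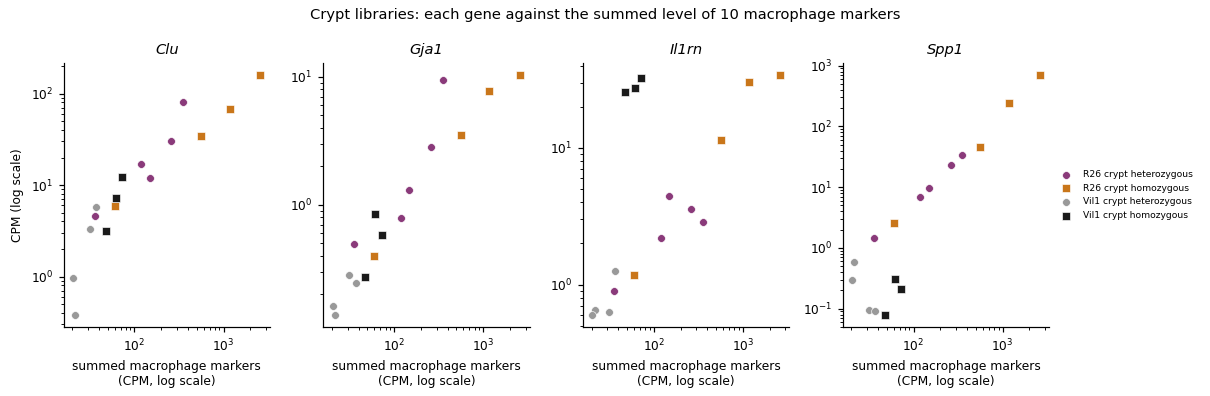
CPM of the 4 genes against the summed CPM of 10 macrophage markers in the 9 Rosa26-CreER and 7 Vil1-CreER crypt libraries, both axes on a log scale, coloured by genotype. In Rosa26-CreER crypts the genes are lowest where the macrophage sum is 35.8 and 59.8 CPM, and in Vil1-CreER crypts Il1rn and the macrophage sum (20.5 to 36.9 CPM heterozygous, 47.7 to 72.6 CPM homozygous) both separate the genotypes. Sums of that size also occur in spheroid cultures, from markers other than C1qb and C1qc, and the part of macrophages was not tested.

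Rosa26-CreER villi held 2.12 to 13.3 CPM of Spp1 (heterozygous) and 1.22 to 29.4 CPM (homozygous), and the crypts of homozygous mice were higher than their villi (3.43 ± 1.10, edgeR, adjusted p = 0.00948; 0.165 with the animal as a block). In Vil1-CreER mice Spp1 was close to absent and showed another pattern. Crypts had 0.0952, 0.0915, 0.586 and 0.299 CPM (heterozygous) and 0.209, 0.305 and 0.0786 CPM (homozygous), with a pooled ratio of 0.792 (0.415 to 1.46). Heterozygous villi had 0.568, 0.543, 2.10 and 1.08 CPM, and homozygous villi ran from 0.0698 to 0.696 CPM (median 0.224). Homozygous villi were lower by 1.99 on the log2 scale (-1.99 ± 0.56, edgeR, adjusted p = 0.0117) at 2 to 56 reads per library, and not called without heterozygous replicate 3 (-1.49, edgeR, adjusted p = 0.0646). Heterozygous crypts were below heterozygous villi (-2.57 ± 0.72, edgeR, adjusted p = 0.00438). Spp1 entered both of these tests through the heterozygous villi, at 14 to 56 reads per library, so these calls are not counted as support.

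Il1rn was higher in flox/flox than in control genotypes, past the test, in the crypts of both drivers, in Vil1-CreER villi and in the second organoid set, and higher with 4-OHT than with DMSO in the flox/flox lines of the first set. The Rosa26-CreER crypt call stood in 1 of 9 fits that left out a library, and reads were few in heterozygous Vil1-CreER villi. Between flox/flox and flox/+ spheroids with 4-OHT Il1rn did not pass the test. In the first organoid set it was 38.4, 51.3 and 13.7 CPM with DMSO and 158, 122 and 61.9 CPM with 4-OHT. All 4-OHT libraries were above all DMSO libraries, each line rose by 2.38 to 4.52 times, and the difference was 1.68 ± 0.50 (edgeR, adjusted p = 0.0359). With the line as a block it was 1.76 (edgeR, adjusted p = 0.000828). Without a block it fell short in 3 of the 6 fits that left out a library, those without DMSO replicate 1 (1.76), 4-OHT replicate 1 (1.39) or 4-OHT replicate 2 (1.60), with an adjusted p of up to 0.106 in edgeR.

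In the second organoid set flox/flox organoids had 24.3, 36.3, 76.0 and 53.5 CPM of Il1rn, flox/+ organoids 18.6, 20.99, 25.6 and 24.0 CPM, and CreER-only organoids 33.5, 21.9, 28.4 and 21.1 CPM. Of the flox/flox libraries 3 were above both control groups, and replicate 1 lay within their ranges. The difference was 1.09 ± 0.31 against flox/+ (edgeR, adjusted p = 0.016) and 0.85 ± 0.31 against CreER-only (edgeR, adjusted p = 0.0462). The second call stood in 3 of 8 fits that left out a library, and was 0.53 without flox/flox replicate 3 (edgeR, adjusted p = 0.127). The control genotypes differed by -0.24 ± 0.32 (edgeR, adjusted p = 0.839).

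A-485 raised Il1rn at 3 and 5 µM, and at 10 µM its level was again that of the DMSO libraries. DMSO organoids had 37.7, 21.1, 10.3 and 11.9 CPM. At 3 µM the values were 111, 67.8, 38.6 and 61.9 CPM, at 5 µM 135, 59.7, 52.5 and 62.5 CPM, and at 10 µM 29.2, 12.1, 14.6 and 11.4 CPM. At 3 and 5 µM every library was above every DMSO library, whereas the 10 µM libraries lay within the DMSO range. The differences from DMSO were 1.66 ± 0.45 at 3 µM (edgeR, adjusted p = 0.0177), 1.86 ± 0.46 at 5 µM (edgeR, adjusted p = 0.00315) and -0.39 ± 0.45 at 10 µM (edgeR, adjusted p = 0.481). From 5 to 10 µM Il1rn fell by 2.24 on the log2 scale (SE 0.46, edgeR, adjusted p = 0.00264), and each of the 4 lines dropped to 0.183 to 0.277 times its level at 5 µM. The 3 µM call was lost without 3 µM replicate 1 (1.35), DMSO replicate 3 (1.44) or DMSO replicate 4 (1.48), at adjusted p values of 0.0541 to 0.0636 in edgeR. The 4-OHT effect of the first set exceeded the 10 µM effect by 2.07 ± 0.74 (edgeR, adjusted p = 0.0328), a call that stood in 6 of 14 fits that left out a library.

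In flox/flox spheroids Il1rn ran from 58.4 to 358 CPM with DMSO (median 95.5) and from 166 to 538 CPM with 4-OHT (median 281). It was higher with 4-OHT in 6 of 6 lines, by 1.51 to 3.36 times. The difference was 1.02 ± 0.43 (edgeR, adjusted p = 0.109) and, with the line as a block, 1.22 (edgeR, adjusted p = 0.000682). Without the block it was 0.82 without the 4-OHT library of line 4, the one with reads in the fewest genes (edgeR, adjusted p = 0.231) and 1.51 without the DMSO library of that line (edgeR, adjusted p = 0.015). The flox/+ lines had 199.6, 235, 278, 301 and 94.4 CPM with DMSO and 240.1, 255, 264, 410.4 and 134 CPM with 4-OHT, at 0.949 to 1.42 times. The 4-OHT effects of the genotypes differed by 0.79 ± 0.64 (edgeR, adjusted p = 0.662), and by 0.99 with the line as a block (edgeR, adjusted p = 0.0032). Flox/flox minus flox/+ spheroids was 0.23 ± 0.45 with 4-OHT (edgeR, adjusted p = 0.804) and -0.55 ± 0.45 with DMSO (edgeR, adjusted p = 0.827). Spheroids were above organoids in both genotypes with 4-OHT, by 3.71 ± 0.44 (flox/+, edgeR, adjusted p = 7.40e-06) and 2.82 ± 0.41 (flox/flox, edgeR, adjusted p = 7.86e-05), with no overlap of the groups.

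In Vil1-CreER mice at month 3 Il1rn separated the genotypes. Heterozygous crypts had 0.635, 1.25, 0.655 and 0.599 CPM, and homozygous crypts had 32.5, 27.4 and 25.5 CPM. The lowest homozygous crypt was far above the highest heterozygous crypt, and the difference was 5.33 ± 0.28 (edgeR, adjusted p = 3.49e-05). Macrophage markers summed to 20.5 to 36.9 CPM in the heterozygous and 47.7 to 72.6 CPM in the homozygous crypts, with none at 0. These ranges did not overlap either. Some spheroid libraries reached sums within the homozygous range, from markers of the list other than C1qb and C1qc. Mitochondrial transcripts took 17.5 to 30.8% of the reads in the heterozygous and 30.4 to 40.3% in the homozygous Vil1-CreER crypts. The part of macrophages and of these transcripts in the Il1rn difference was not tested. In the villi Il1rn was 1.58, 0.102, 0.412 and 0.224 CPM in heterozygous mice and 3.91 to 8.59 CPM (median 5.33) in homozygous mice, again with no overlap (3.08 ± 0.58, edgeR, adjusted p = 0.00111). The heterozygous villi held 3 to 39 reads per library and the homozygous villi 94 to 214. Il1rn thus entered this test through the homozygous villi, and the call is not counted as support. The genotype effect was larger in crypts than in villi by 2.23 ± 0.74 (edgeR, adjusted p = 0.0498), but by 0.91 without heterozygous villus replicate 1 (edgeR, adjusted p = 0.254), and this call stood in 5 of 17 fits that left out a library. With the animal as a block it was 1.76 (edgeR, adjusted p = 0.219). Homozygous crypts were above homozygous villi by 1.98 ± 0.45 (edgeR, adjusted p = 9.65e-04).

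In Rosa26-CreER crypts on day 9 Il1rn was 2.19, 4.43, 2.89, 3.56 and 0.898 CPM in heterozygous mice and 11.4, 30.3, 34.2 and 1.17 CPM in homozygous mice. Replicates 1, 3 and 4 of the homozygous mice were above all heterozygous mice, and replicate 5, the mouse with the fewest macrophage reads of its group, was not. Mitochondrial transcripts took 6.24 to 12.4% of the reads in these heterozygous and 13.7 to 25.2% in these homozygous crypts. The part of macrophages and of mitochondrial transcripts was not tested. The Il1rn difference was 2.88 ± 0.81 (edgeR, adjusted p = 0.0354). It was 3.28 without homozygous replicate 5 (edgeR, adjusted p = 0.00183), and in the 8 fits that left out any other library it was 2.44 to 3.14 with an adjusted p of 0.0515 to 0.091 in edgeR. With Y-linked transcripts as a covariate it was 2.41 (edgeR, adjusted p = 0.194). Ddx3y was above 1 CPM in 5 of 5 heterozygous and 1 of 4 homozygous crypts. In the villi of these mice Il1rn ran from 0.417 to 3.04 CPM in the heterozygous and 0.424 to 2.59 CPM in the homozygous mice (-0.36 ± 0.55, edgeR, adjusted p = 0.653). The genotype effect in crypts exceeded that in villi by 3.10 ± 1.00, which missed the threshold (edgeR, adjusted p = 0.0512). Homozygous crypts were above homozygous villi by 2.80 ± 0.73 (edgeR, adjusted p = 0.00224; 0.0542 with the animal as a block).

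Gja1 was well read in spheroids and near or at 0 in organoids. With 4-OHT the flox/+ spheroid lines had 73.3, 142, 87.6, 53.9 and 21.3 CPM, while the flox/+ organoids held 2 reads in 4 libraries (0, 0, 0.0571 and 0.0404 CPM). The ratio of pooled levels was 2690 with an exact 95% interval of 744 to 22213. In flox/flox cultures the spheroids ran from 73.3 to 275 CPM (median 219) and the organoids had 0.270, 0.0662, 2.50 and 0.356 CPM, a pooled ratio of 240 (183 to 320.5). Of the 53 organoid reads 42 came from replicate 3, and without that library the ratio was 850 (475 to 1704). The groups did not overlap in either genotype. Like Spp1, Gja1 entered the test through the spheroids alone (edgeR, adjusted p = 2.17e-06 and 5.13e-06).

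Within flox/flox spheroids Gja1 rose with 4-OHT. It ran from 41.6 to 95.1 CPM with DMSO (median 70.6) and from 73.3 to 275 CPM with 4-OHT (median 219), and 5 of 6 lines with 4-OHT were above the DMSO range. Every line rose, by 1.76 to 3.29 times with a median of 2.91. The difference was 1.42 ± 0.48 (edgeR, adjusted p = 0.0429), and it fell to an adjusted p of up to 0.0888 in 9 of the 12 fits that left out a library, 1.35 and 0.0735 among them without the 4-OHT library of line 4. With the line as a block it had an adjusted p of 1.69e-04 in edgeR. The flox/+ lines had 46.1, 98.9, 88.5, 25.4 and 8.61 CPM with DMSO and 73.3, 142, 87.6, 53.9 and 21.3 CPM with 4-OHT, at 0.991 to 2.47 times (0.50 ± 0.52, edgeR, adjusted p = 1). The 4-OHT effect in flox/flox exceeded that in flox/+ lines by 0.91 ± 0.70 (edgeR, adjusted p = 0.637), and by 0.67 with the line as a block (edgeR, adjusted p = 0.039). Fibroblast markers, of which none was at 0 in every library of a group, summed to 7.79 to 20.3 CPM in flox/flox spheroids with DMSO and 0.536 to 7.26 CPM with 4-OHT, and in flox/+ spheroids up to 244 CPM. Their part in the difference was not tested.

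In the first organoid set Gja1 was 1.30, 0.467 and 0.172 CPM with DMSO (42, 14 and 4 reads) and 5.60, 3.26 and 1.62 CPM with 4-OHT. Gja1 entered the test there through the 4-OHT libraries. All 4-OHT libraries were above all DMSO libraries, at 4.32 to 9.46 times in the same line, and the difference was 2.34 ± 0.69 (edgeR, adjusted p = 0.0346). With the line as a block it was 2.48 (edgeR, adjusted p = 0.00106), and without the block it fell short in 4 of the 6 fits that left out a library, all but those without DMSO replicate 1 or 4-OHT replicate 3, at 1.84 to 2.36. In the second set CreER-only organoids had 0, 0.398, 0.181 and 0.0633 CPM. The pooled flox/flox level was 30.9 times the flox/+ level (8.15 to 262) and 4.57 times the CreER-only level (2.50 to 8.92), but without flox/flox replicate 3 these ratios were 8.73 (1.91 to 81.1) and 1.29 (0.530 to 3.06). Gja1 had too few reads for the test there.

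In the A-485 series Gja1 was 0, 0.440, 0.311 and 0.219 CPM with DMSO. At 3 µM replicate 3 had 0.350 CPM, from 4 reads, and the other 3 libraries had none, and no read was counted at 5 or 10 µM. Pooled over the 10 µM group, 3 reads would be 0.0583 CPM, so a level up to that is allowed by counting alone.

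In Rosa26-CreER crypts Gja1 was 0.790, 1.30, 9.40, 2.81 and 0.496 CPM in heterozygous and 3.50, 7.70, 10.3 and 0.399 CPM in homozygous mice. The groups overlapped, with homozygous replicate 4 above and replicate 5 below all heterozygous mice (1.04 ± 0.98, edgeR, adjusted p = 0.481), and heterozygous replicate 3, at 9.40 CPM, also had the most fibroblast and macrophage reads of its group. Rosa26-CreER villi had at most 0.650 CPM in heterozygous and 0.912 CPM in homozygous mice, below most crypts in heterozygous (2.37 ± 0.90, edgeR, adjusted p = 0.0246; 1.30 with an adjusted p of 0.167 without crypt replicate 3) and homozygous mice (2.10 ± 0.87, edgeR, adjusted p = 0.0362; 0.075 with the animal as a block). Vil1-CreER tissue had at most 0.855 CPM. There the homozygous level was above the heterozygous level by a pooled ratio of 2.87 (1.76 to 4.78) in crypts and 8.46 (2.69 to 42.8) in villi, on 27 and 3 reads in the heterozygous groups. The libraries overlapped, at 0.138 to 0.286 CPM (heterozygous) and 0.275 to 0.855 CPM (homozygous) in crypts. In villi they ran from 0 to 0.0811 CPM and from 0 to 0.562 CPM, and Gja1 had too few reads for the genotype test in either tissue.

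**Figure D5:**
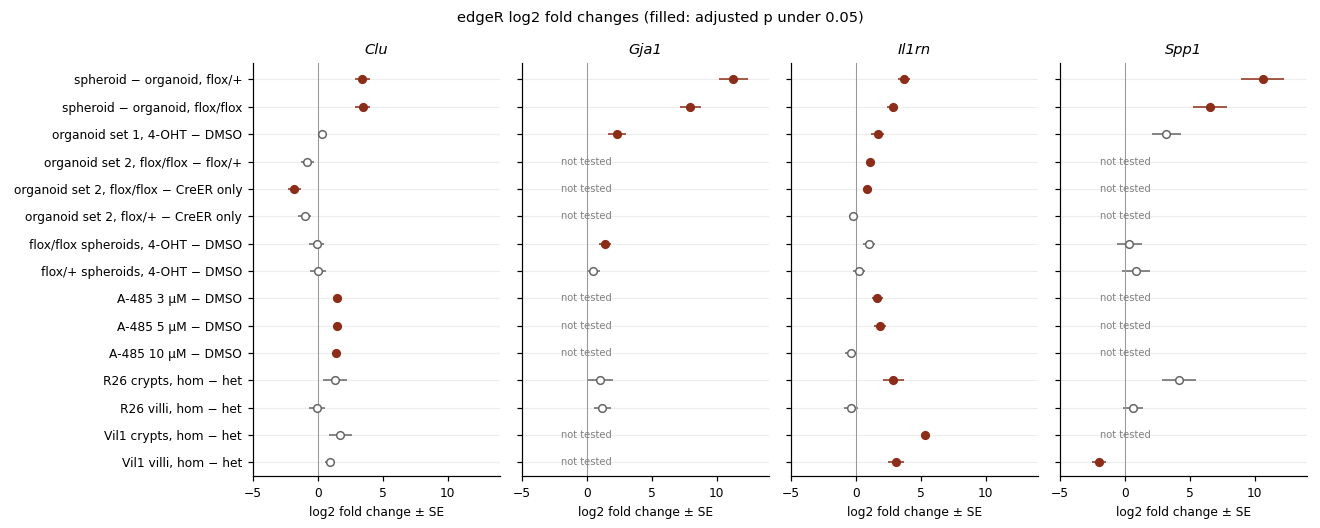
Log2 differences with their standard errors from edgeR for Clu, Gja1, Il1rn and Spp1 in the comparisons of culture type, genotype, 4-OHT and A-485, with filled points for an adjusted p under 0.05 and a note where a gene was not tested. Il1rn is to the right of 0 with a filled point in Vil1-CreER crypts (5.33) and villi (3.08), and Clu at all 3 doses of A-485 (1.49, 1.46 and 1.44).

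In the comparison of spheroids with organoids only Clu and Il1rn had enough reads in both culture types to be counted. Both were called higher in flox/+ cultures, where 23% of all tested genes were called higher, and in flox/flox cultures, against 18.5%. The CPM ranges did not overlap for 2 of 2 in flox/+ cultures (17.7% of genes were higher without overlap) and for 1 of 2 in flox/flox cultures (10.3%), and the genotype effect did not differ between spheroids and organoids past the threshold for either (0.0532% of genes did). Spheroids and organoids were fitted from the same count table, and other differences between the culture types cannot be told apart from age. In the first organoid set 2 of 4 were called higher against 18.2% of genes, or 3 of 4 against 22.2% with the line as a block, and 2 of 4 had no overlap against 29.6%. Gja1, among those called, entered the test through the 4-OHT libraries.

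In the second organoid set 2 of the 4 genes had enough reads. Of these 1 was called higher in flox/flox than in flox/+ organoids (22.6% of genes), and against CreER-only 1 was called higher (21.9%) and 1 lower (23.5%), while none was called between the control genotypes (0.113%). These comparisons share groups with each other. In flox/flox spheroids 1 of 4 was called higher with 4-OHT (9.01%), or 2 of 4 with the line as a block (17.6%). In flox/+ spheroids none was called (0%), nor with the block (0.00718%). None was called between the genotypes with 4-OHT (10.5%) or DMSO (0%), and none for the difference in the 4-OHT effect (1.62%), against 2 of 4 higher with the block (8.22%). With A-485, of the 2 genes with enough reads, 2 were called higher at 3 µM (10.8%), 2 at 5 µM (24.4%) and 1 at 10 µM (29.4%), with no overlap for 2 (18.6%), 2 (27.5%) and 1 (32.9%). None was called between 3 and 5 µM (24.5%), and 1 fell from 5 to 10 µM (12.4%). The first set's 4-OHT effect differed, of the same 2 genes, from the 10 µM effect for 2 (39.4%) and from the 3 µM effect for 1 (4.87%).

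In Rosa26-CreER crypts 1 of 4 was called higher in homozygous mice (8.63%), and in villi none was called in either direction (33.2%). In Vil1-CreER crypts 1 of the 2 tested genes was called higher (11.6%), and that gene did not overlap (8.87% of genes). In Vil1-CreER villi 1 of 3 was called higher (20.9%) and did not overlap (15.2%), and 1 was called lower (21.6%). These calls are not counted as support, as Il1rn entered the test through the homozygous and Spp1 through the heterozygous villi. Crypts were above villi for 2 of 4 genes in heterozygous (38.6%) and 4 of 4 in homozygous Rosa26-CreER mice (41%), and for 1 of 4 in homozygous Vil1-CreER mice (34.5%), and below them for 1 of 4 in heterozygous Vil1-CreER mice (31.7%). The gene below was Spp1, which entered that test through the villi. The genotype effect differed between crypts and villi for none of 4 in Rosa26-CreER (11.5%) and 1 of 4 in Vil1-CreER mice (15.5%).

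Other fetal and regenerative genes, a list of 28 that includes annexins, Ly6a, Areg and Ereg, were counted in the same comparisons. In the first organoid set 21 of 28 rose and 0 fell with 4-OHT, with a median log2 difference of 1.48. Over all tested genes 18.2% rose and 17.2% fell, with a median of 0.03. The largest rise called was Anxa8, a membrane-binding annexin, at 2.61. In flox/flox spheroids 11 of 28 rose and 0 fell (median 1.00), led by Mal, a membrane raft protein, at 2.23, against 9.01% and 10% of all genes (median -0.02). In flox/+ spheroids none of the list was called, nor was any other gene. With 10 µM A-485, 20 of 28 rose and 4 fell (median 3.20), with Ccn2, a matricellular protein, at 5.82 and Vsig1 at -2.94, against 29.4% and 32.6% of all genes (median -0.05). In Vil1-CreER crypts 14 of 25 tested genes rose and 1 fell (median 1.59), led by S100a6, a calcium-binding protein, at 5.99, with Itga2 at -0.53, against 11.6% and 17.7% of all genes (median 0.01). In Rosa26-CreER crypts 8 of 24 rose and 1 fell (median 1.13), again led by S100a6 (3.19), with Itga2 at -1.09, against 8.63% and 11.6% (median 0.04).

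Among the receptors and partners of the 4 proteins, genes were called in both directions. Of 11 osteopontin receptor subunits, 3 of 8 tested rose and 1 fell in the first organoid set, with the integrin subunit Itgav at 1.15 and Itga4 at -3.62, where 18.2% and 17.2% of all genes did so. The list's median was 0.32. In flox/flox spheroids 3 of 9 rose and 1 fell, with Itgav at 0.97 and Itga4 at -4.16 (median -0.20, and 9.01% and 10% of all genes). With 10 µM A-485, 4 of 6 rose and 1 fell, with Itgav at 2.90 and Cd44, the hyaluronan receptor that also binds osteopontin, at -2.45 (median 1.51, and 29.4% and 32.6% of all genes). Of the other 19 connexins, 4 of 6 tested rose and 2 fell in the first organoid set, with Gjd3 at 2.85 and Gjb1, connexin 32, at -1.01 (median 1.496). In flox/flox spheroids 3 of 5 rose and 1 fell, with Gjb1 at -1.77 (median 1.08). The shares of all genes in these comparisons are those just given.

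Of 18 other genes of the interleukin-1 family and its receptors, 5 of 13 tested rose and 0 fell in Rosa26-CreER crypts, led by the cytokine Il1b at 3.89 (median 2.15, and 8.63% and 11.6% of all genes). In Vil1-CreER crypts 5 of 13 rose and 0 fell, led by the decoy receptor Il1r2 at 2.77 (median 0.68, and 11.6% and 17.7% of all genes). In the first organoid set 2 of 8 rose (18.2% of all genes), and in flox/flox spheroids 1 of 9, Il1a, fell by 2.76 (10% of all genes fell) while none rose. With A-485, 1 of 6 rose at 3 µM (10.8% of all genes) and at 5 µM (24.4%), which was Il18 each time (1.03 and 0.81). At 10 µM 2 of 6 rose and 2 fell (29.4% and 32.6% of all genes), Il33 the most (-2.20). Of the 3 clusterin receptors, Lrp8 rose (2.38) and Vldlr fell (-1.82) in Vil1-CreER crypts, as they did in Rosa26-CreER crypts (1.78 and -0.76).

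By the pattern over the 21 group means of log2(CPM + 1), each centred on its own count table, the nearest of 11329 genes to Gja1 were Gria3 (r = 0.984), Plxdc2 (0.972) and Hs6st2 (0.970). The nearest to Spp1 were Rab11fip5 (0.939), Efna5 (0.936) and Col4a5 (0.936). Those nearest to Clu were Thsd4 (0.924), Ston1 (0.916) and Anxa1 (0.903), and those nearest to Il1rn were Hspbap1 (0.911), Phlda3 (0.904) and Inka2 (0.904). Among the 4 themselves Gja1 and Spp1 were most alike (0.916), followed by Clu and Spp1 (0.787) and Clu and Il1rn (0.762). The 21 groups share lines, animals and batches, and these values are descriptions.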

How the data were processed

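Poly(A)-selected, directional libraries were sequenced, and reads were aligned with HISAT2 2.0.5 to GRCm38 (mm10), per the submitters' processing notes. The authors deposited raw gene counts, 1 column per library in 4 tables, per the labels. The counting program, annotation and strand setting are not given in the sources used here. The tamoxifen dose, 4 daily injections of 100 mg/kg, is stated for the Vil1-CreER mice only.

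The counts were fitted across all genes in edgeR 4.0.16 (R 4.3.3): filterByExpr, TMM scaling, robust quasi-likelihood F-tests, two-sided, and Benjamini-Hochberg adjustment over all tested genes. Calls were made below an adjusted p of 0.05. Single genes, lists and motifs were chosen with earlier results of these data known. Named from each list are the called genes with the largest rise and fall, and, for likeness, the 3 genes with the highest r; a gene that this rule would name is not reported here. Intervals of pooled ratios are exact 95% intervals and, like the floors of 3 reads, cover counting error only. Relations between lines were tested with 100000 permutations, two-sided, on log2(CPM + 0.5). The fits were tested on simulated data.

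Culture line and animal are given by the labels, so libraries pair by line in the first organoid set (correlation of deviations 0.318 to 0.501), the A-485 series (0.045 to 0.299) and the spheroids (0.323 to 0.764 in flox/flox and 0.622 to 0.839 in flox/+), and by animal between crypts and villi (0.00685 to 0.273). Replicate numbers do not pair the other groups. Alternatives were other scaling (DESeq2 1.42.0 size factors, library totals), no filter, the DESeq2 Wald test, blocks, covariates and leaving out each library. No library was left out.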

Additional observations from a re-analysis of the deposited data

Results flagged for a closer look

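In 63 groups of a gene and 4 to 10 libraries, a library that stood further from its nearest neighbour than Dixon's 95% limit was looked for, which chance gives in about 1 group in 20. It was found for Gja1 in heterozygous Rosa26-CreER crypt replicate 3 (9.40 CPM), in 3 µM A-485 replicate 3 (0.350 CPM, the only library of that group with reads) and in flox/flox organoid replicate 3 of the second set (2.50 CPM, the library that also held most of the Spp1 reads of its group). It was found for Il1rn in heterozygous Vil1-CreER crypt replicate 2 (1.25 CPM) and in 5 µM A-485 replicate 1 (135 CPM), from the line with unfloxed Eif4g2, which had the highest Il1rn at every dose.

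The effect of genotype on Il1rn differed between the crypts and villi of Vil1-CreER mice by 2.23 on the log2 scale (edgeR, adjusted p = 0.0498). All 3 homozygous crypts were above all 4 heterozygous crypts, and all 6 homozygous villi above all 4 heterozygous villi, so the direction was the same in both tissues. The difference in size was 0.91 without heterozygous villus replicate 1 (edgeR, adjusted p = 0.254), was called in 5 of 17 fits that left out a library, and was 1.76 with the animal as a block (edgeR, adjusted p = 0.219).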

How the results depend on the processing

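The tallies of log2 differences cover 84 tested values of the 4 genes. Tested values that the text does not give were left out, some of them close to 0, so reversals may be undercounted. Of 479 recomputed log2 differences, 440 kept their direction and their side of the threshold under other scaling, filters, tests, blocks or covariates, 23 lost the call, 13 gained one and 3 reversed. Of 925 that left out a library, 825 kept both, 74 lost the call, 10 gained one and 16 reversed. The 3 that reversed were differences close to 0: Clu in flox/flox spheroids (0.0153 with the line as a replicate block), Clu from 3 to 5 µM A-485 (0.00093 with that block) and Clu from 5 to 10 µM (0.0300 with library totals). Where leaving out a library reversed a sign, Clu lay at -0.10 to 0.48 for 4-OHT in the first organoid set, -0.33 to 0.15 for 4-OHT in flox/flox spheroids, from -0.16 to 0.18 between 3 and 5 µM and from -0.12 to 0.0476 between 5 and 10 µM. Il1rn ran from -0.79 to 0.0854 at 10 µM and from -0.21 to 0.51 between 3 and 5 µM, and Spp1 from -0.31 to 0.69 in flox/flox spheroids. Library totals in place of TMM moved the median difference of all genes from 0.15 to 1.11 between crypts and villi of heterozygous Rosa26-CreER mice and from 0.05 to 0.22 in Vil1-CreER villi, and no called value of the 4 genes turned its direction.

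The number of the 4 genes called changed as follows, and the cause was not tested. Smaller moves, such as from 2 to 3 or from 4 to 3, are not listed. Without the filter on low counts 1 became 0 in Rosa26-CreER crypts, 2 became 1 between crypts and villi of heterozygous Rosa26-CreER mice, from 1 to 0 for the difference in genotype effect in Vil1-CreER mice, 2 became 0 for 4-OHT in the first organoid set, 1 became 2 (flox/+) and 2 became 1 (CreER-only) in the second, from 1 to 0 in flox/flox spheroids, from 2 to 1 at 3 µM A-485 and from 1 to 0 for 4-OHT against 3 µM A-485. With the DESeq2 Wald test it went to 2 in Rosa26-CreER crypts and for flox/flox against flox/+ organoids, and to 1 for the difference in genotype effect in Rosa26-CreER mice. With library totals it went to 2 between crypts and villi of heterozygous Vil1-CreER mice and to 0 for the difference in genotype effect there. With only the groups compared it was 1 for flox/flox against CreER-only organoids, and with Y-linked transcripts or the series of animal numbers as a covariate it was 0 in Rosa26-CreER crypts.

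A replicate block by line gave 2 in flox/flox spheroids and 2 for the difference of their 4-OHT effect from flox/+ lines, and a block by animal gave 0 between crypts and villi of homozygous Rosa26-CreER mice and 0 for the difference in genotype effect in Vil1-CreER mice. A block by replicate number, which the labels do not tie to animals, gave 2 in Rosa26-CreER crypts (correlations of 0.0366 to 0.599), 1 in Vil1-CreER villi and 1 for flox/flox against CreER-only organoids. A block by line also gave 3 in the first organoid set, as did other settings, and smaller moves are again not listed.

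With each library left out in turn the count ran from 0 to 2 in Rosa26-CreER crypts, 1 to 2 in Vil1-CreER crypts and 1 to 3 in Vil1-CreER villi. Between crypts and villi it ran from 0 to 2 and 2 to 4 in heterozygous and homozygous Rosa26-CreER mice and from 1 to 3 in heterozygous Vil1-CreER mice, and for the difference in genotype effect from 0 to 2 (Rosa26-CreER) and 0 to 1 (Vil1-CreER). The count for 4-OHT was 0 to 3 in the first organoid set. It ran from 1 to 2 in both second-set comparisons with flox/flox, 0 to 1 in flox/flox spheroids, 1 to 2 at 3 µM A-485, and 2 to 4 and 0 to 1 for 4-OHT against 10 and 3 µM A-485, where Gja1 and Spp1, with too few reads in the A-485 series, were fitted too. Few reads limit the results for Gja1 and Spp1 in organoids and Vil1-CreER tissue.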
